A study of Mus musculus with 18 samples.

Results

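CD4 T cells sorted from the bone marrow of pMT-10 mice given zinc were compared with those of C57BL/6 mice given zinc. The comparison rested on 6 of the 18 libraries of the series, 3 for each kind of mouse, and on autosomal genes only. The pMT-10 mouse carries an interleukin 10 (IL-10) transgene behind a metallothionein promoter, which zinc switches on, and C57BL/6 is the wild-type strain. Both kinds of mice drank zinc-enriched water for 30 days, so zinc itself was shared and the transgene was not. A further control, CD4 cells of pMT-10 mice given water without zinc, is quoted beside some genes. The design text names 3 mice of each kind, and each library is taken as 1 mouse. The labels give neither the age of the mice, nor the gate of the sort, nor the cells in which the transgene is active. The comparison asks how CD4 T cells of the marrow differ after a month of induced IL-10, with zinc and the sequencing chip held the same. The series title names an interferon gamma-dependent emergency myelopoiesis, meaning a rapid output of myeloid cells from the marrow.

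IL-10 is a cytokine best known for restraining macrophages and dendritic cells. It signals through the receptor chains Il10ra and Il10rb, the kinases Jak1 and Tyk2 and the transcription factor Stat3. CD4 T cells are helper cells that read antigen on class II molecules and direct other cells through the cytokines they release. Naive CD4 cells hold a quiescence programme built on Klf2, Tcf7, Lef1 and Il7r, while effector cells lose it, take up cytokine, chemokine and sometimes cytotoxic genes, and move into tissues.

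Each library was read with an amplicon panel that measures a single short piece of each of 23930 genes, so levels are compared between libraries and not between genes. Total counts of the 6 libraries ran from 11764418 to 16386245. Of the autosomal genes 10801 passed the filter on low counts. C57BL/6 libraries held reads of Y-linked genes and pMT-10 libraries held Xist, so sex and strain cannot be told apart, and genes on X and Y are left out throughout. Levels are given as CPM, which are counts scaled to the size of each library. Cd4, the coreceptor of helper cells, read 2236, 2270 and 2067 CPM in C57BL/6 and 3164, 3189 and 3405 CPM in pMT-10. Cd8a read at most 10.03 CPM in any of the 6. The CD8 markers Cd8a and Cd8b1 summed to 23.7 to 45.5 CPM in C57BL/6 and 20.7 to 23.4 CPM in pMT-10. These genes have different amplicons, so their levels give no measure of the purity of the sort. The difference in Cd4 did not pass the main test over all 18 libraries (adjusted p = 0.295), where its spread is shared with CD8 cells. It passed when only the CD4 libraries were fitted, and also over all 18 libraries with no filter on low counts (0.00322). Replicate 3 of C57BL/6 and replicate 2 of pMT-10 each stood part of the way toward the other group. Over 29 genes that were at least 8 times higher in every zinc-fed pMT-10 library than in every pMT-10 library without zinc, C57BL/6 replicates 1, 2 and 3 held a median of 2.85%, 3.76% and 9.62% of the induced mean. Over genes at least 4 times lower in both other pMT-10 libraries, pMT-10 replicate 2 held a median of 32.6% of the C57BL/6 mean (65 genes). The same measure gave 9.62% for replicate 1 and 8.27% for replicate 3 (9 genes each). The gene sets differ, and those of replicates 1 and 3 were chosen partly by replicate 2, so these medians are not directly comparable. Where leaving out a library moved a printed ratio of means of a called gene by more than 1.5 times, the ratio without it is given too.

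Markers of other marrow cells are given as sums of CPM, and their part in the results was not tested. Neutrophil markers summed to 93.5 to 157 CPM in C57BL/6 and 37.8 to 107 CPM in pMT-10, most of it Mmp9, with Mpo and Mmp8 at 0 in all 6 libraries and none of 3 tested markers called (Mmp9 was called lower without pMT-10 replicate 2, adjusted p = 0.00744). Natural killer markers summed to 51.1 to 64.2 CPM and 13.1 to 20.9 CPM, with Klra8 and Klra4 at 0, and 4 of the 7 tested fell. B cell markers summed to 21.3 to 22.4 CPM and 4.05 to 13.7 CPM, with Pax5 at 0 and Cd79b the 1 that fell. Monocyte and macrophage markers summed to 8.51 to 10.1 CPM and 21.4 to 33.6 CPM, with C1qa at 0 and Cd68 the 1 of 2 that rose. Endothelial and stromal markers summed to 329.9 to 405.3 CPM and 49.8 to 144.5 CPM, with Cdh5 and Emcn at 0 and Pecam1, which T cells also express, the 1 tested marker and lower. Dendritic cell markers summed to 179 to 188 CPM and 234 to 345 CPM, with Irf8 higher and Ccr9 lower among 4 tested. Stem and progenitor markers summed to 6.28 to 7.56 CPM and 21.2 to 23.8 CPM, with Hlf the 1 of 2 tested that rose. Platelet markers reached 159 CPM in pMT-10 replicate 3 and 0.443 to 3.38 CPM in the other 5 libraries. Because each library is a bulk sample, fewer cells of a type and less RNA per cell cannot be told apart in any value that follows.

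The marrow CD4 cells of the induced mice differed from wild type across a wide part of the panel. At an adjusted p under 0.05, 2050 autosomal genes were called, which is 19.0% of those tested. Of these 1026 were higher (9.50%) and 1024 were lower (9.48%), and with a change of at least 2-fold added the numbers were 458 higher (4.24%) and 558 lower (5.17%). When counts were scaled by library size alone the split became 817 higher and 1394 lower, with the median change of all genes moving from -0.04 to -0.15 on the log2 scale, so directions of small changes depend on the scaling. All 3 libraries of a group lay beyond all 3 of the other for 37.6% of the genes. Lists of genes with a known role differed in their share of calls. The lists and their members were chosen with earlier results of these data known, so the shares are a description and not a test. Granule, effector factor, coinhibitory, GTPase and antigen processing lists held mostly rises and the naive list held mostly falls. Of the homing receptors 9 of 21 fell and of the ribosomal genes 10 of 20.

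**Figure D1:**
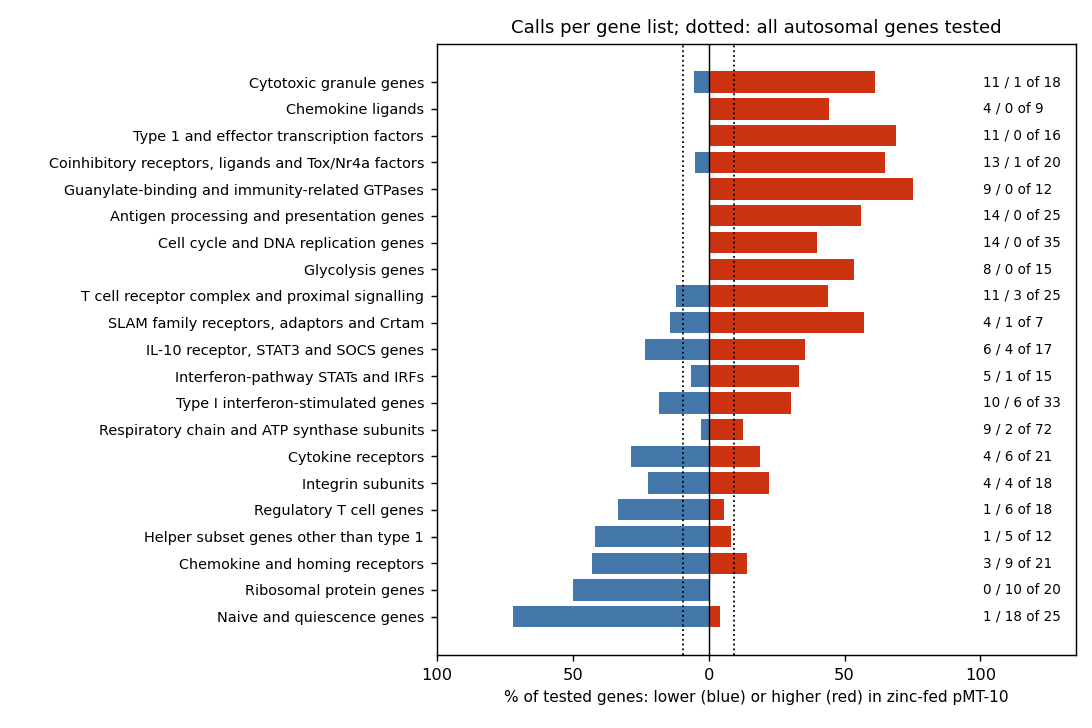
Each bar gives the percentage of tested genes of a list that were called lower (left, blue) or higher (right, red) in zinc-fed pMT-10 CD4 cells, and the numbers at the right are higher, lower and tested genes. The lists were chosen with earlier results of these data known. The dotted lines mark the shares among all autosomal genes tested, 9.48% lower and 9.50% higher, and the GTPase list reaches farthest to the right with 9 of 12 while the naive list reaches farthest to the left with 18 of 25.

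Most tested genes of cytotoxic granules rose in CD4 cells, a lineage that mostly lacks them. Of 22 listed genes 18 were tested, 11 rose and 1 fell, with a median log2 change of 1.39 against -0.04 over all genes tested. Gzmk, a granule serine protease at chr13:113171608-113225908 (GRCm38, GENCODE annotation), read 19.5, 27.9 and 108 CPM in C57BL/6 and 1260, 679 and 1331 CPM in pMT-10. Every induced library was above every wild-type one, and C57BL/6 replicate 3 and pMT-10 replicate 2 were the nearest to each other. The ratio of means was 21.1, or 46.0 without C57BL/6 replicate 3, and the fitted log2 change was 4.40 ± 0.67 (SE, adjusted p = 0.000362). Gzmb, the granzyme that cleaves caspases in a target cell, read 48.3, 90.2 and 159 CPM in C57BL/6 and 1814, 1319 and 1655 CPM in pMT-10. Prf1, the perforin that opens the target membrane, read 9.50, 19.7 and 16.6 CPM in C57BL/6 and 118, 69.5 and 99.7 CPM in pMT-10, a 6.26-fold difference of means (adjusted p = 1.27e-05). Without zinc the pMT-10 mice had 9.12 ± 0.98 CPM of Prf1 (SD, n = 3), close to the wild-type level.

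The helpers and guards of the granule moved with its contents. Cst7, an inhibitor of the proteases that activate granzymes, read 62.5, 51.7 and 53.0 CPM in C57BL/6 and 240.5, 189 and 241 CPM in pMT-10 (4.01-fold, adjusted p = 1.23e-08). Ctsw, a cysteine protease of killer lymphocytes, read 107, 157 and 182 CPM in C57BL/6 and 398, 297 and 443 CPM in pMT-10 (log2 1.35 ± 0.19, adjusted p = 3.26e-05). Serpinb9, the inhibitor that shields a killer cell from its own granzyme B, was 2.69-fold higher, and Serpina3g, another inhibitor of intracellular proteases, was 3.32-fold higher. Rab27a, the small GTPase that docks granules at the membrane, read 432, 369 and 354 CPM against 744, 754 and 679 CPM. These 5 genes, picked among called members, had no overlap between groups. Over all autosomal genes tested, 18.9% had every pMT-10 library above every C57BL/6 one. Lamp1, a protein of the lysosome and granule membrane, was the 1 member that fell, from 168 ± 31.9 to 107 ± 11.2 CPM (SD, n = 3 each, log2 -0.65 ± 0.16, adjusted p = 0.0066). Srgn, the proteoglycan on which granule proteins are stored, averaged 1118 CPM in C57BL/6 and 1426 CPM in pMT-10 and was not called (adjusted p = 0.275).

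**Figure D2:**
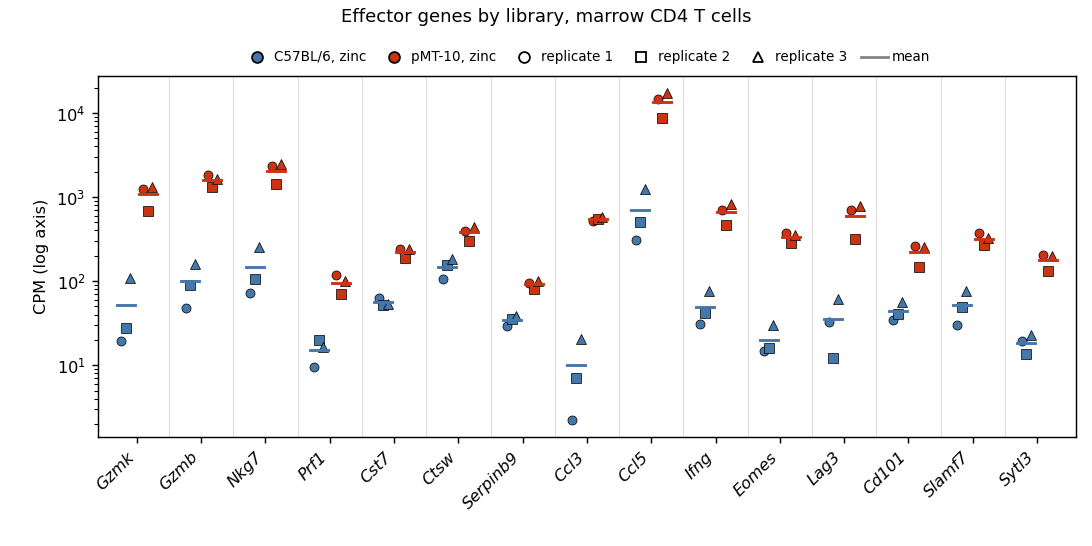
CPM (log axis) of 15 effector genes in each of the 3 zinc-fed C57BL/6 (blue) and 3 zinc-fed pMT-10 (red) CD4 libraries, with a symbol per replicate and a line at each group mean. The groups do not overlap for any of the 15 genes, which were picked mostly for the size of their change. Over all autosomal genes tested, 18.9% had every pMT-10 library above every C57BL/6 one. C57BL/6 replicate 3 is the highest blue point for Gzmk, Gzmb, Nkg7, Ctsw, Ccl3, Ccl5, Ifng, Eomes, Lag3, Cd101 and Slamf7. For Prf1 and Cst7 another replicate is the highest.

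Some chemokine ligands rose by large factors. Of 9 chemokine ligands tested 4 rose and none fell, and these were Ccl3, Ccl4, Ccl5 and Ccl9, the last of which lost its call without C57BL/6 replicate 1 or 3 or pMT-10 replicate 1 or 2 (adjusted p from 0.0519 to 0.112). Ccl3, which attracts monocytes and T cells, read 2.20, 6.95 and 20.7 CPM in C57BL/6 and 523, 550 and 579 CPM in pMT-10. Ccl5 read 312, 510 and 1262 CPM in C57BL/6 and 14580, 8775 and 17340 CPM in pMT-10. The ratio of means was 55.3 for Ccl3 and 19.5 for Ccl5, and 120 and 33.0 without C57BL/6 replicate 3. Ccl3 and Ccl4 are near neighbours with close relatives in the genome, so reads of such copies may be shared, as may those of the Gbp and class I families. Cxcl10, the interferon-induced ligand of Cxcr3, overlapped between the groups, with 76.1, 30.6 and 53.0 CPM in C57BL/6 and 27.4, 73.6 and 11.1 CPM in pMT-10 (adjusted p = 0.673).

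Among 19 tested cytokines and growth factors 3 rose and 2 fell, with 1 rise left without C57BL/6 replicate 1 and between 1 and 5 falls without single libraries (1 without C57BL/6 replicate 1 or pMT-10 replicate 1 or 3, 5 without pMT-10 replicate 2). Among all autosomal genes tested the shares were 9.50% higher and 9.48% lower. Ifng, the type 1 cytokine that activates macrophages, read 30.6, 41.4 and 76.7 CPM in C57BL/6 and 703, 467 and 816 CPM in pMT-10, against 37.0 ± 7.26 CPM in pMT-10 mice without zinc (SD, n = 3). Il10 read 7.14, 3.01 and 8.25 CPM in C57BL/6 and 26.0, 16.6 and 20.9 CPM in pMT-10, so wild-type marrow CD4 cells also held reads of it. Its log2 change of 1.79 ± 0.55 had an adjusted p of 0.0319, and the call ended when C57BL/6 replicate 1 or 2 or pMT-10 replicate 1 or 3 was left out (adjusted p from 0.0699 to 0.132). No source used here says whether the Il10 amplicon reads the transgene, the mouse's own gene or both. Csf1, the growth factor of macrophages, read 92.03, 85.8 and 102 CPM against 176, 127 and 251 CPM and was not called (adjusted p = 0.162), although the groups did not overlap. It was called when only the 9 CD4 libraries (adjusted p = 0.00133) or the 6 libraries (0.00727) were fitted and with no filter (1.31e-06). Lta, which encodes lymphotoxin alpha, fell to 0.353 of the wild-type mean (log2 -1.51 ± 0.31, adjusted p = 0.00131). Ltb, its membrane partner, read 1199 ± 61.2 CPM and 943 ± 185 CPM and was not called (adjusted p = 0.0578), but was called lower without pMT-10 replicate 2 (0.00594).

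Transcription factors of effector cells rose in most cases. Of 16 tested factors 11 rose and none fell, with a median log2 change of 1.46. Eomes, a T-box factor of cytotoxic and memory cells, read 14.7, 16.1 and 29.8 CPM in C57BL/6 and 369, 281 and 355 CPM in pMT-10 (log2 4.05 ± 0.29, adjusted p = 1.42e-08). Tbx21, the T-box factor that defines type 1 helper cells, read 40.8, 36.6 and 55.9 CPM in C57BL/6 and 58.2, 69.6 and 58.7 CPM in pMT-10 and was not called (adjusted p = 0.115). It was called higher without C57BL/6 replicate 3 (log2 0.68, adjusted p = 0.0365) and when only the 9 CD4 libraries were fitted (0.0312). Bhlhe40, a factor that favours cytokine output over Il10 in T cells, read 142, 80.0 and 189 CPM against 509, 603 and 539 CPM, a 4.02-fold difference (adjusted p = 0.00118). Irf8 was 3.48-fold higher (adjusted p = 6.43e-05), and it is also 1 of the 9 dendritic cell markers listed. Of these, Siglech, Flt3, Clec9a and Cd209a stayed under 1 CPM in all 6 libraries. Of the 4 tested, Irf8 rose, Ccr9 fell and 2 were not called, and a part of dendritic cells in the Irf8 rise was not tested. Id2, an antagonist of E proteins, was 4.55-fold higher, Runx3, which silences Cd4 in the CD8 lineage, was 2.97-fold higher, and Ikzf3, an Ikaros family factor of activated lymphocytes, was 1.71-fold higher. Zeb2, a repressor found in terminal effector cells, was low, at 3.04 ± 0.44 and 9.91 ± 3.16 CPM (SD, n = 3 each, adjusted p = 0.00637). Prdm1, which encodes Blimp-1, read 59.3, 48.4 and 115 CPM in C57BL/6 and 231, 174 and 223 CPM in pMT-10, and its adjusted p of 0.0192 rose to between 0.0572 and 0.0976 when C57BL/6 replicate 1 or 2 or pMT-10 replicate 1 or 3 was left out. Zbtb7b, the factor that fixes the CD4 lineage, read 162 ± 26.3 CPM and 126 ± 14.2 CPM and was not called (adjusted p = 0.404), and Maf, a factor that drives Il10, overlapped between groups (adjusted p = 0.567).

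Most tested genes of a list of coinhibitory receptors, their ligands and exhaustion factors rose, and Ctla4 fell. Of 20 tested 13 rose, 1 fell and 6 were not called, with a median log2 change of 1.26. Lag3, a class II binding inhibitory receptor, read 33.1, 12.1 and 61.7 CPM in C57BL/6 and 703, 318 and 783 CPM in pMT-10, a 16.9-fold difference that became 26.6-fold without C57BL/6 replicate 3. Cd101, an inhibitory receptor found on late exhausted T cells, read 34.7, 40.6 and 56.3 CPM against 262, 147 and 255 CPM (5.04-fold, adjusted p = 0.000248). Havcr2, which encodes TIM-3, was near the lower limit in wild type at 0.608, 1.39 and 1.73 CPM and reached 26.6, 11.2 and 26.2 CPM. Ctla4, which competes with Cd28 for its ligands, went the other way, from 174, 196 and 276 CPM to 102, 83.0 and 85.7 CPM (log2 -1.25 ± 0.26, adjusted p = 0.00177). Tox2, a nuclear factor of exhausted and follicular T cells, was 3.75-fold higher, Tox was 2.19-fold higher, and Nr4a2, an orphan nuclear receptor induced by antigen signals, read 0.684, 1.85 and 4.48 CPM against 22.98, 21.7 and 23.9 CPM. For Nr4a2 the ratio of means was 9.78, and 18.03 without C57BL/6 replicate 3. Pdcd1, which encodes PD-1, read 241, 167 and 323 CPM against 689, 509 and 725 CPM (log2 1.40 ± 0.42, adjusted p = 0.0284), and Tigit was 1.87-fold higher (adjusted p = 0.0264). Both of these calls ended without C57BL/6 replicate 2 and without pMT-10 replicate 1 or 3, with adjusted p of 0.128, 0.0765 and 0.0905 for Pdcd1 and 0.139, 0.0867 and 0.0655 for Tigit. The Pdcd1 call also ended without C57BL/6 replicate 1 (0.0822) and the Tigit call without C57BL/6 replicate 3 (0.0940).

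Interferon gamma acts through its receptor chains Ifngr1 and Ifngr2 and a signal that ends at GAS elements, and the IRF factors it induces bind ISRE elements. Guanylate-binding proteins and immunity-related GTPases, which attack vacuoles that hold microbes, and the machinery of class I antigen presentation are standard targets. Of 12 tested GTPase genes 9 rose and none fell, with a median log2 change of 0.79. Gbp2 read 96.4, 118 and 119 CPM in C57BL/6 and 265, 292 and 213 CPM in pMT-10 (2.31-fold, adjusted p = 0.000177). Gm12250, an immunity-related GTPase, was 1.97-fold higher, Gbp4 was 1.93-fold higher and Igtp was 1.88-fold higher. The annotated spans of Gbp4 and Gbp9 overlap on the same strand, so their reads may not be fully separate. Irgm1, a regulatory member of the family, was 1.75-fold higher than in C57BL/6, and pMT-10 mice without zinc already had 122 ± 23.6 CPM of it against 140 ± 8.87 CPM with zinc (SD, n = 3 each).

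The sequences before the start of 3 GTPase genes are shown because the genes rose together and hold the letters of both elements. The sequence of Irf1, a risen IRF gene described below, is set beside them and holds a GAS match alone. Windows of 250 bases before and 50 after each RefSeq start (GRCm38.p6) were searched on both strands for TTCNNNGAA (GAS) and GAAANNGAAA (ISRE). Of all 32851 windows 8.30% held the GAS letters, 3.44% the ISRE letters and 0.454% both. Among the 9 GTPase genes that rose 7 had a window, of which 7 held an ISRE match, 4 a GAS match and 4 both. Gbp2b, the 1 GTPase gene with a window that did not rise, held an ISRE match too. In these counts a gene matched if any of its windows did, so they differ in unit from the shares per window. Irf1 has 2 windows, and the window printed for a gene is the one with the most matches. Gbp5, another risen GTPase gene with both matches, is not printed. Among risen genes of other lists, ISRE matches were in 2 of 10 of antigen processing and 2 of 6 of the type I interferon list. They were in 2 of 5 interferon factors and 1 of 9 granule genes. GAS matches were in 1, 1, 3 and 3 of these. Of type I genes that did not rise 8 of 17 held an ISRE match. The 150 bases before the start are printed 5′ to 3′ on the plus strand, with matches in capitals, for Irf1 (chr11:53769864-53770013), Igtp (chr11:58199406-58199555), Gm12250 (chr11:58183693-58183842) and Gbp7 (chr3:142530186-142530335).
Irf1: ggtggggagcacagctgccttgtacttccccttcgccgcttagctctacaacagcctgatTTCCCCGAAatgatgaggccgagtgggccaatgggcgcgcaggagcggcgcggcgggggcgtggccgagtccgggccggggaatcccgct
Igtp: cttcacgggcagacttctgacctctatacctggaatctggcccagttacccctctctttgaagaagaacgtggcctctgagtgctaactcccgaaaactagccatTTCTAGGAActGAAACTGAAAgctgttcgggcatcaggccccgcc
Gm12250: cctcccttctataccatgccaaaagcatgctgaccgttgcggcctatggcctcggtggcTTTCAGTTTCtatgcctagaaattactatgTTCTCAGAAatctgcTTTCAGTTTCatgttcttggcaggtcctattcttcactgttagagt
Gbp7: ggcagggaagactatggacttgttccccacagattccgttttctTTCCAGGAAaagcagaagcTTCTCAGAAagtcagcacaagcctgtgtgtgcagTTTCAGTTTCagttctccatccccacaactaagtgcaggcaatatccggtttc
In Irf1 the GAS match began 90 bases before the start, in Igtp the GAS and ISRE matches began 45 and 34 bases before it, and no 2 matches in the 4 genes overlapped. A match is a description of letters and not a sign of binding.

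Genes of antigen processing and presentation rose at several steps of the class I route. Of 25 tested genes, class II genes included, 14 rose and none fell, with a median log2 change of 0.84. Nlrc5, the transactivator of class I genes, read 339, 299 and 439 CPM in C57BL/6 and 687, 789 and 714 CPM in pMT-10 (2.03-fold, adjusted p = 1.77e-05). Tap1 and Tap2, the peptide transporter chains, were 1.97-fold and 1.94-fold higher, and Tapbp, which loads peptide, was 1.94-fold higher. Psmb8 and Psmb10, subunits of the immunoproteasome, were 1.80-fold and 1.76-fold higher. The class I chains themselves were high in both groups and not called: H2-K1 read 10450 ± 496 and 12180 ± 618 CPM (adjusted p = 0.236) and B2m 4883 ± 250 and 5926 ± 500 CPM (adjusted p = 0.251, SD, n = 3 each). When only the 9 CD4 libraries were fitted both were called higher (adjusted p = 0.0459 and 0.0228). Cd74, the class II invariant chain, was among the 14 rises, with 265.6, 203.4 and 194.4 CPM in C57BL/6 and 279.6, 588.3 and 305.4 CPM in pMT-10 (adjusted p = 0.0483). Its groups did not overlap, pMT-10 replicate 2 was the highest library, and the call ended without that library (adjusted p = 0.3) or any 1 of the C57BL/6 libraries (0.0542 to 0.147), with scaling by library size (0.0882), and when only the 9 CD4 or the 6 libraries were fitted (0.066 and 0.0818). Of the other class II genes of antigen-presenting cells, H2-Ab1 stayed under 1 CPM in each of the 6 libraries, as did Ciita, the class II transactivator.

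**Figure D3:**
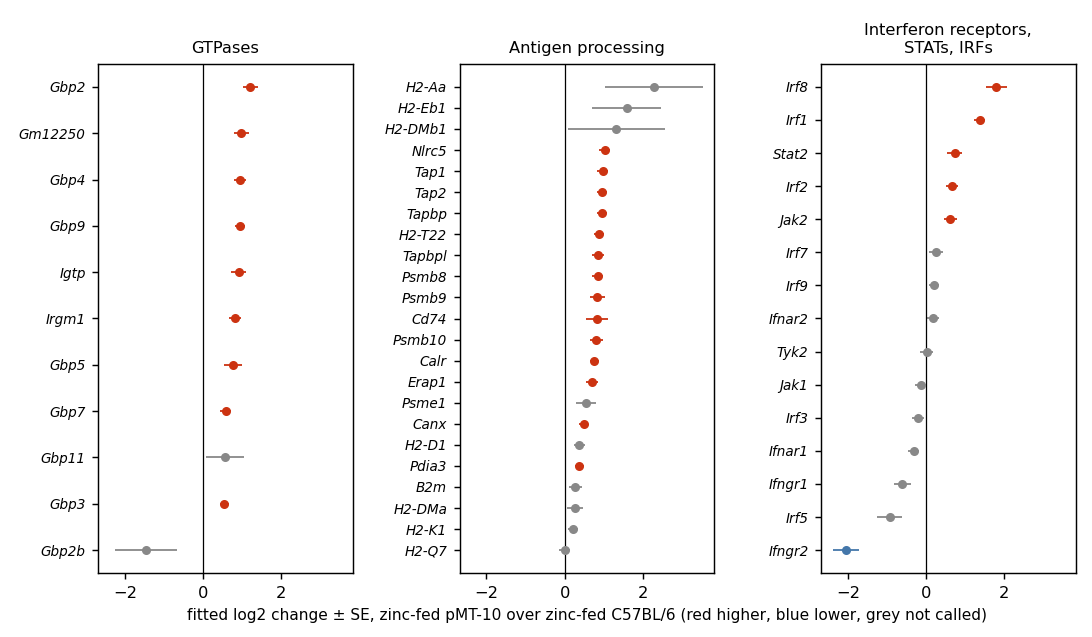
Fitted log2 change with its SE for tested genes of 3 lists whose higher group mean was at least 1 CPM, in red where called higher, in blue where called lower and in grey where not called. The GTPase and antigen processing genes that were called all lie to the right of 0, from 0.38 to 1.21, and Ifngr2 lies farthest to the left at -2.06.

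The interferon factors and receptors did not share a direction. Of 15 tested genes 5 rose and 1 fell, with a median log2 change of 0.18, with 3 rises without C57BL/6 replicate 1, and with 2 or 3 falls without C57BL/6 replicate 2 or pMT-10 replicate 2. Under scaling by library size 4 fell. Irf1, the first IRF induced by interferon gamma, read 728, 627 and 673 CPM in C57BL/6 and 1747, 1765 and 1764 CPM in pMT-10, a tight 2.60-fold difference (log2 1.38 ± 0.14, adjusted p = 6.63e-07). Irf2, which can oppose Irf1 at the same sites, was 1.58-fold higher. Ifngr2, the signalling chain of the interferon gamma receptor, fell, from 36.8, 41.5 and 33.6 CPM to 5.22, 17.2 and 4.80 CPM. Its mean was 0.243 of wild type, or 0.134 without pMT-10 replicate 2 (log2 -2.06 ± 0.33, adjusted p = 0.000152). Ifngr1, the ligand-binding chain, read 841, 835 and 769 CPM against 469, 699 and 442 CPM and lay at the threshold (adjusted p = 0.0509). It was called lower without pMT-10 replicate 2 (adjusted p = 0.00952).

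Genes stimulated by type I interferons split, with 10 of 33 rising and 6 falling, at a median log2 change of -0.13. Lgals3bp, a secreted glycoprotein, was 2.80-fold higher and Zbp1, a sensor of left-handed nucleic acid, was 2.24-fold higher. Slfn5, a Schlafen family member of quiescent T cells, fell from 156, 168 and 132 CPM to 37.6, 64.1 and 27.7 CPM (log2 -1.82 ± 0.27, adjusted p = 6.7e-05). Without single libraries the counts of this list ran from 5 to 8 rises and 1 to 5 falls. The lowest count of rises came without C57BL/6 replicate 2. The falls were 1 without C57BL/6 replicate 2 or pMT-10 replicate 3, and 2 without C57BL/6 replicate 1 or pMT-10 replicate 1.

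Parts of the IL-10 signalling route rose, and other genes of the same list fell. Of 17 tested genes 6 rose and 4 fell, with a median log2 change of 0.18, and 2 fell without pMT-10 replicate 1. The 4 that fell were Stat5b, Pim1, Il6ra and Il6st. Il10ra, the ligand-binding chain, read 402, 306 and 383 CPM in C57BL/6 and 649, 580 and 725 CPM in pMT-10 (1.79-fold, adjusted p = 0.00473). Il10rb, the shared chain, read 319 ± 18.7 and 377 ± 27.9 CPM and was not called (adjusted p = 0.174), and Jak1 overlapped between groups (adjusted p = 0.535). Stat3 read 460, 467 and 520 CPM against 893, 848 and 740 CPM (1.71-fold, adjusted p = 0.000635). Bcl3, an NF-kappa-B cofactor and known Stat3 target, was 3.09-fold higher, and Jak3, the kinase of the common gamma chain, was 2.80-fold higher. The receptor of the other large Stat3 cytokine, interleukin 6, fell: Il6ra read 54.3, 67.7 and 49.8 CPM against 3.13, 14.9 and 2.55 CPM, and its signalling chain Il6st read 491, 438 and 331 CPM against 132, 192 and 158 CPM. The mean of Il6ra was 0.120 of wild type, and 0.0496 without pMT-10 replicate 2 (log2 -3.10 ± 0.48, adjusted p = 0.000178).

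Of 21 tested genes in a list of cytokine receptors 4 rose and 6 fell. Il12rb1, a chain of the interleukin 12 and 23 receptors, was 3.16-fold higher, Il18rap, the signalling chain of the interleukin 18 receptor, 2.65-fold, Il15ra 3.42-fold and Il21r 1.67-fold. Il12rb2, the partner of Il12rb1 in type 1 cells, fell instead, from 14.7, 35.0 and 38.8 CPM to 6.14, 14.3 and 8.99 CPM (log2 -1.60 ± 0.39, adjusted p = 0.00577). Il4ra, the receptor of the type 2 cytokine interleukin 4, fell to 0.524 of wild type, and Il9r fell to 0.192. Il2rb, a chain of the interleukin 2 and 15 receptors, overlapped between groups (adjusted p = 0.196) and was called higher without C57BL/6 replicate 3 (0.041). Il2ra, the high-affinity chain that regulatory T cells carry, read 500, 606 and 548 CPM against 167, 463 and 151 CPM and was not called (adjusted p = 0.102), with pMT-10 replicate 2 near the wild-type level. Without that library it was called lower (log2 -1.79, adjusted p = 0.00394), as it was with no filter (1.82e-09). The value with no filter is no measure of strength, for the reason given with Csf1.

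Most genes of the naive programme fell. Of 25 tested genes 18 fell and 1 rose, with a median log2 change of -1.37 against -0.04 over all genes tested, and 12 fell when only the 6 libraries were fitted. Tcf7, a factor of naive and self-renewing T cells, read 1983, 1965 and 2089 CPM in C57BL/6 and 746, 1310 and 589 CPM in pMT-10 (log2 -1.19 ± 0.20, adjusted p = 0.000259). Id3, an E protein antagonist that opposes Id2 in T cell fate, read 170, 142 and 124 CPM against 15.01, 33.1 and 17.5 CPM (0.150 of wild type, adjusted p = 1.47e-07). Bach2, a repressor of effector genes, fell to 0.281 of wild type, or 0.176 without pMT-10 replicate 2, and Actn1, an actin cross-linker of resting T cells, fell to 0.173, or 0.102 without it. For each of these genes pMT-10 replicate 2 was the highest of the 3 induced libraries and still below all wild-type ones. They were picked among called genes, and 18.8% of all autosomal genes tested lay wholly below wild type. Lef1 fell to 0.437, Il7r to 0.311 (0.202 without pMT-10 replicate 2) and Klf2 to 0.302 of wild type. Foxo1, the factor above Klf2 and Il7r in this programme, read 253 ± 36.8 and 191 ± 23.2 CPM and was not called (adjusted p = 0.0879). Btg1, a quiescence gene, was the 1 member that rose, by 1.42-fold, and its adjusted p of 0.00912 became 0.0515 without C57BL/6 replicate 1.

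The receptors that guide T cells changed with the naive genes. Of 21 tested homing receptors 9 fell and 3 rose, with a median log2 change of -0.91. S1pr1, which brings lymphocytes out of tissue into blood, read 1498, 1623 and 1192 CPM in C57BL/6 and 154, 427 and 93.6 CPM in pMT-10. Its mean was 0.157 of wild type, or 0.0861 without pMT-10 replicate 2 (log2 -2.68 ± 0.40, adjusted p = 0.000212). Ccr7, which takes naive cells into lymph nodes, fell to 0.190 of wild type, or 0.0884 without pMT-10 replicate 2. Its adjusted p was 0.00194 over 18 libraries and 0.104 when only the 6 libraries were fitted. Cxcr4, the receptor for the marrow retention signal Cxcl12, read 189, 180 and 198 CPM against 73.6, 121 and 76.4 CPM (adjusted p = 0.000476). Gpr15, a gut homing receptor, fell from 31.2, 32.6 and 33.9 CPM to 3.13, 3.72 and 0.899 CPM. On the rising side Ccr2, a receptor of inflammatory monocyte chemokines, was 2.85-fold higher and Cxcr6, a receptor of tissue-resident cells, was 2.50-fold higher. Cxcr6 stood at 285 ± 2.68 CPM in pMT-10 mice without zinc and 312 ± 74.4 CPM with it (SD, n = 3 each, adjusted p = 0.827 in that comparison, which shares the induced libraries).

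**Figure D4:**
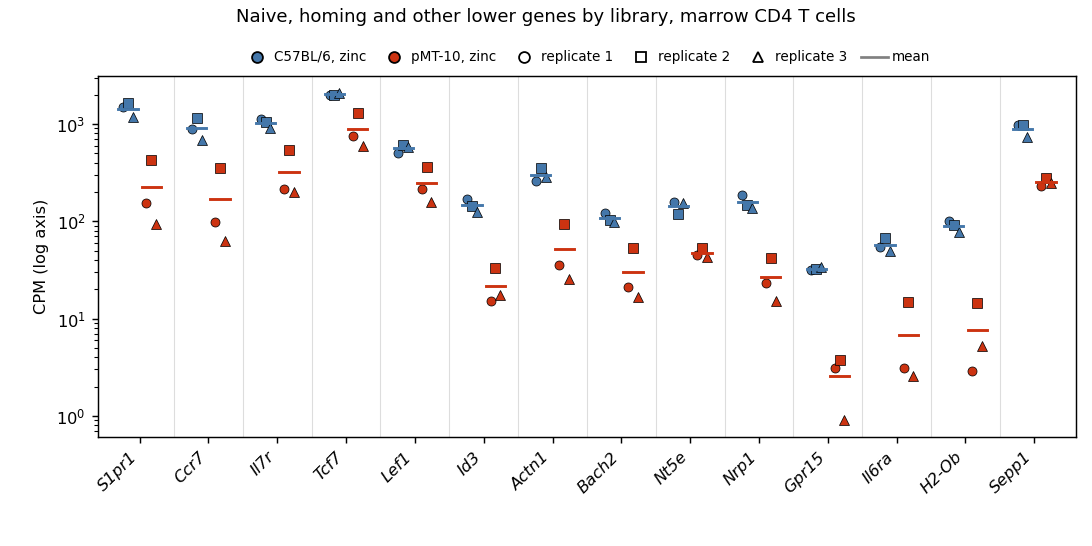
CPM (log axis) of 14 genes called lower in zinc-fed pMT-10 CD4 cells, in each of the 3 C57BL/6 (blue) and 3 pMT-10 (red) libraries, with a symbol per replicate and a line at each group mean. Red points lie below blue points for all 14 genes, which were picked among called genes, against 18.8% of all autosomal genes tested. In each, pMT-10 replicate 2 (square) is the highest red point, for example 427 CPM of S1pr1 against 154 and 93.6 CPM.

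Integrin subunits split, with 4 of 18 rising and 4 falling, and 2 rising without C57BL/6 replicate 1 or pMT-10 replicate 3. Itgal and Itgb2, the chains of LFA-1, rose together, with Itgb2 at 786, 604 and 1005 CPM in C57BL/6 and 2169, 1618 and 2366 CPM in pMT-10 (2.57-fold, adjusted p = 5.38e-05). Itgb1, the common chain of matrix-binding integrins, read 383, 386 and 431 CPM against 163, 205 and 142 CPM (0.424 of wild type, adjusted p = 1.41e-05). Its partners Itga6, a laminin receptor chain, and Itga5, a fibronectin receptor chain, fell to 0.305 and 0.0877 of wild type, the latter from 6.31 ± 0.32 CPM to 0.553 ± 0.46 CPM, and Itga5 stood at 0.0543 without pMT-10 replicate 3. Itga4 and Itgb7, the chains of the gut homing integrin, were not called (adjusted p = 0.673 and 0.313).

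Genes of regulatory T cells and of other helper subsets were called lower in several cases. Foxp3, the defining gene of regulatory T cells, is X-linked and not reported. Of 18 tested regulatory T cell genes 6 fell and 1 rose, with a median log2 change of -0.77, and 10 fell with no filter on low counts. The rise, of Itgae, ended without C57BL/6 replicate 1 or 3 or pMT-10 replicate 2 or 3. Nt5e, the ectoenzyme CD73, read 158, 118 and 152 CPM in C57BL/6 and 45.4, 53.5 and 42.8 CPM in pMT-10 (0.331 of wild type, adjusted p = 5.22e-07). Ikzf2, which encodes Helios, fell to 0.329 and Nrp1, a receptor of thymus-derived regulatory cells, to 0.170 of wild type, while Izumo1r, a folate receptor family member, fell only to 0.651. Of 12 tested genes of helper subsets other than type 1, 5 fell and 1 rose. Gata3, the type 2 master factor, read 112, 125 and 149 CPM against 65.9, 89.4 and 65.4 CPM (adjusted p = 0.00405). Ccr4, a type 2 and regulatory cell receptor, fell to 0.384 and Il1rl1, the interleukin 33 receptor, to 0.190 of wild type, or 0.123 without pMT-10 replicate 2. The 1 gene that rose was Tox2, given above.

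The T cell receptor route rose in part. Of 25 tested genes 11 rose and 3 fell, with a median log2 change of 0.48, and 1 fell without pMT-10 replicate 3. Fyn, a Src family kinase, read 243, 196 and 232 CPM in C57BL/6 and 582, 420 and 625 CPM in pMT-10 (2.43-fold, adjusted p = 1.24e-05). Zap70, the kinase that binds the receptor chains, was 1.87-fold higher, Lat, the adaptor it phosphorylates, 2.06-fold, and Themis, a regulator of receptor signals, 1.97-fold. Lck overlapped between groups (adjusted p = 0.151). Of the phosphatases that dampen the signal, Ptpn22 was 1.72-fold higher while Ptpn6, which encodes SHP-1, fell from 244, 200 and 246 CPM to 75.2, 139 and 80.2 CPM (adjusted p = 3.75e-05). Among SLAM family genes and their adaptors 4 of 7 rose and 1 fell. The fall, of Slamf6, ended without C57BL/6 replicate 1 or 2 or pMT-10 replicate 1 or 3. Slamf7 read 29.8, 49.5 and 76.1 CPM against 369, 266 and 324 CPM (6.17-fold, adjusted p = 7.39e-06), and Crtam, an adhesion molecule of cytotoxic CD4 cells, read 8.51, 6.79 and 6.83 CPM against 28.3, 38.6 and 31.5 CPM.

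Signals that follow the receptor moved in both directions. Egr2, a zinc finger factor induced by antigen signals, read 3.27, 3.24 and 4.48 CPM in C57BL/6 and 13.1, 17.9 and 13.6 CPM in pMT-10 (4.06-fold, adjusted p = 0.00102). Dusp6, the phosphatase that turns off the kinase ERK, was 3.91-fold higher, and Fosl2, an AP-1 subunit, was 2.21-fold higher. Zfp36l2, an RNA-binding protein that shortens the life of cytokine messages, read 975, 1001 and 1133 CPM against 515, 552 and 444 CPM (0.486 of wild type, adjusted p = 4.03e-05). Of the 29 tested genes of these families 5 rose and 7 fell, and 4 fell without pMT-10 replicate 3. The costimulatory receptors Tnfrsf9 (4-1BB) and Tnfrsf14 were 2.06-fold and 2.02-fold higher, Tnfrsf25 fell to 0.296 of wild type, and Cd28 overlapped between groups (adjusted p = 0.244).

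Genes of cell death did not share a direction. Of 14 tested members of the tumour necrosis factor families 3 rose and 3 fell, and 5 or 6 rose with DESeq2, with no filter and when only the CD4 or the 6 libraries were fitted. Of 17 tested Bcl2 family and caspase genes 6 rose and 3 fell. Only 3 of the last list rose without C57BL/6 replicate 1 or 2 or pMT-10 replicate 1. For comparison, 9.50% of all autosomal genes tested were higher and 9.48% lower. Tnfsf10, which encodes the death ligand TRAIL, read 98.5, 110 and 146 CPM in C57BL/6 and 578, 432 and 674 CPM in pMT-10 (4.75-fold, adjusted p = 6.63e-07), and Fasl was 5.52-fold higher. Tnfrsf1a, a tumour necrosis factor receptor with a death domain, was 2.20-fold higher. Casp1, the inflammasome caspase, was 2.90-fold higher. The 3 that fell hold both survival and death members of the Bcl2 family: Bcl2 to 0.502, Bcl2l1, which encodes Bcl-xL, to 0.467 and Bmf, a killer of the BH3-only class, to 0.173 of wild type.

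Some cell cycle genes rose. Of 35 tested genes 14 rose, none fell and 21 were not called, with a median log2 change of 1.19. Mki67, a mark of dividing cells, read 15.4, 13.6 and 18.2 CPM in C57BL/6 and 67.2, 43.4 and 44.96 CPM in pMT-10 (3.30-fold, adjusted p = 0.00286). Ube2c, which drives the exit from mitosis, was 4.59-fold higher and Mcm2, a subunit of the replicative helicase, 1.54-fold. The inhibitor Cdkn1a (p21) rose with them, from 5.78, 3.86 and 7.86 CPM to 48.2, 28.8 and 41.6 CPM (6.78-fold, adjusted p = 0.00112). Cdkn2a, the locus of p16 and p19, read 0.836, 0 and 0.707 CPM against 14.95, 11.4 and 21.4 CPM. The count of cell cycle rises depended on the fit: it was 22 when only the 6 libraries were fitted and 9 without C57BL/6 replicate 1.

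Of 15 tested glycolysis genes 8 rose and none fell, with a median log2 change of 0.42, and the count was 4 without C57BL/6 replicate 1 or 2 and 5 without C57BL/6 replicate 3 or pMT-10 replicate 1 or 2. Pfkp, an isoform of the committed enzyme, read 124, 119 and 124 CPM in C57BL/6 and 356, 277 and 324 CPM in pMT-10 (2.61-fold, adjusted p = 8.33e-07). Ldha, which makes lactate, read 866 ± 129 and 1148 ± 86.3 CPM and was not called (adjusted p = 0.0578). Of 72 genes with the symbols of respiratory chain and ATP synthase parts, which take in some assembly factors, 9 rose and 2 fell, and 3 rose under scaling by library size alone. The rises were 2 without C57BL/6 replicate 1 or pMT-10 replicate 1, 5 without C57BL/6 replicate 2 and 4 without pMT-10 replicate 3. A single fall was left without pMT-10 replicate 1. For all autosomal genes tested the shares were 9.50% higher and 9.48% lower, so the rises of this list lay near the general share. The panel held 23 genes with ribosomal protein symbols, of which 20 were tested, and the counts hold for these alone. Of the 20 tested 10 fell and none rose, with a median log2 change of -0.50, and 6 fell without C57BL/6 replicate 2. Rps21 read 1995, 2431 and 2204 CPM in C57BL/6 and 1367, 1113 and 1432 CPM in pMT-10 (0.590 of wild type, adjusted p = 0.00485), and Rpl30 fell to 0.619 of wild type (adjusted p = 0.00163).

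Zinc was given to both kinds of mice. Of 17 tested metallothionein and zinc transporter genes 3 rose and 1 fell, and the fall ended without C57BL/6 replicate 1 or 2 or pMT-10 replicate 1. The shares among all autosomal genes tested were 9.50% higher and 9.48% lower. Mt1, the main zinc-induced metallothionein, read 4.64, 5.56 and 3.06 CPM in C57BL/6 and 8.42, 11.3 and 12.9 CPM in pMT-10 and was not called (adjusted p = 0.185), against 0.782 ± 0.57 CPM in pMT-10 mice without zinc. Mt3, a metallothionein best known from brain, read 1.52, 1.16 and 2.28 CPM against 12.9, 8.42 and 16.7 CPM (7.68-fold, adjusted p = 0.00156).

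Several of the largest fitted changes lay outside these lists. Ociad2, which encodes an endosomal and mitochondrial membrane protein, read 0, 0.232 and 0.393 CPM in C57BL/6 and 27.9, 21.7 and 43.5 CPM in pMT-10 (log2 7.17 ± 0.82, adjusted p = 2.98e-06). Nefl, the light chain of neurofilaments, read 0, 0 and 0.707 CPM against 24.6, 9.21 and 20.5 CPM, and Miat, a long noncoding RNA, read 0, 0 and 0.864 CPM against 15.2, 7.44 and 26.3 CPM. In each of these the C57BL/6 reads lay mostly or wholly in replicate 3, so the ratios rest on a few reads. Esm1, a secreted proteoglycan, read 2.96, 3.09 and 17.5 CPM against 216, 133 and 220 CPM, and its ratio of means went from 24.2 to 62.7 without C57BL/6 replicate 3. Esm1 at chr13:113209659-113218098 lies inside the annotated span of Gzmk on the opposite strand, so reads of the pair may not be fully separate. Pkdcc, a secreted kinase, Clgn, a chaperone of the endoplasmic reticulum, and Napsa, an aspartic protease, all stood under 3 CPM in each C57BL/6 library and at 38.4 ± 8.19, 12.04 ± 5.44 and 10.1 ± 3.67 CPM in pMT-10 (SD, n = 3).

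Large falls came in genes of many kinds. H2-Ob, a chain that restrains class II peptide loading, read 101, 91.4 and 78.0 CPM in C57BL/6 and 2.87, 14.6 and 5.25 CPM in pMT-10, 0.0842 of wild type or 0.0451 without pMT-10 replicate 2 (adjusted p = 2.09e-06). St8sia6, a sialyltransferase, fell to 0.126 of wild type, or 0.0788 without that library, and Irak3, a brake on Toll-like receptor signals, to 0.114. Qser1, a protein of unsettled role, read 11.02, 15.8 and 10.9 CPM against 1.37, 1.42 and 1.42 CPM. Dntt, the polymerase that adds bases at receptor gene joins in the thymus, fell from 19.0, 22.2 and 11.2 CPM to 0.718, 1.42 and 0.749 CPM (adjusted p = 1.16e-06).

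Among abundant genes, Ctsd, a lysosomal protease, read 874, 950 and 999 CPM in C57BL/6 and 3074, 2052 and 3003 CPM in pMT-10 (2.88-fold, adjusted p = 1.8e-06). Ucp2, a mitochondrial carrier, read 2032, 1924 and 2399 CPM against 5787, 4350 and 4714 CPM (2.34-fold), Sub1, a transcription coactivator, was 2.34-fold higher and AW112010, a noncoding locus of inflamed cells that can be translated, was 3.91-fold higher. Falls at high level were seen for Sepp1, the selenium carrier selenoprotein P, at 970, 977 and 735 CPM against 233, 279 and 247 CPM (0.283 of wild type, adjusted p = 7.62e-08), and for Dgka, a kinase that ends diacylglycerol signals, at 0.404 of wild type. Rpph1 and Rmrp, the RNA parts of the enzymes RNase P and RNase MRP, fell to 0.408 and 0.404 of wild type. For Rpph1 and Rmrp the pMT-10 mice without zinc lay between, at 8717 ± 2074 and 1881 ± 661 CPM, and neither was called in the comparison within pMT-10 (adjusted p = 0.169 and 0.561), which shares the induced libraries.

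Whether these changes were particular to CD4 cells was tested with the interaction term, the CD4 change minus the change of the same contrast in CD8 cells of the same kinds of mice. It was called for 603 autosomal genes, 5.58% of those tested, with 230 more positive in CD4 (2.13%) and 373 more negative (3.45%). Of the 25 naive genes 11 had a more negative change in CD4 cells and none a more positive one, and of the 20 coinhibitory genes 8 were more negative and 1 more positive. Of the 12 GTPase genes 4 were more negative, and of 18 granule genes 4 were more positive and 2 more negative. Crtam rose in CD4 cells by log2 2.15 ± 0.19 and read 87.0 ± 10.1 and 74.3 ± 11.98 CPM in the CD8 cells of C57BL/6 and pMT-10 (difference of changes 2.38 ± 0.25, adjusted p = 5.36e-05). Eomes, Cst7 and Sytl3, a granule docking protein, also rose more in CD4 cells, by differences of 3.39, 1.81 and 2.53 on the log2 scale. Wild-type CD8 cells had higher means than wild-type CD4 cells for these 4 genes, for example with 97.3 ± 16.5 CPM of Eomes and 149 ± 11.1 CPM of Cst7. Nt5e fell in CD4 cells and read 83.3 ± 3.71 and 87.3 ± 11.4 CPM in CD8 cells (difference -1.67 ± 0.22, adjusted p = 0.000203). Ctla4 moved in opposite directions, falling in CD4 cells and rising in CD8 cells from 2.07 ± 1.23 to 10.9 ± 4.45 CPM (difference -3.60 ± 0.43, adjusted p = 0.000107). CD4 and CD8 libraries may come from the same mice, and the test does not use that.

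**Figure D5:**
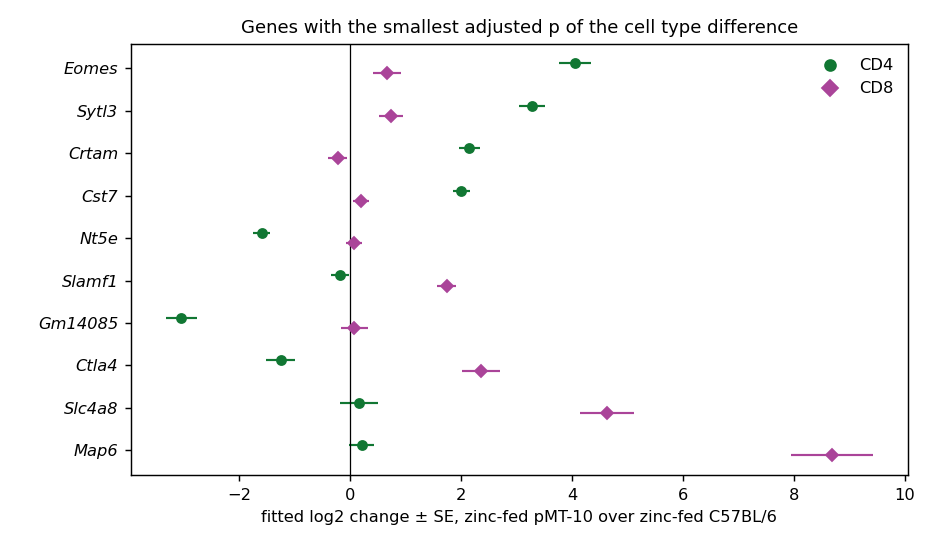
Fitted log2 change with its SE, pMT-10 over C57BL/6, both given zinc, in CD4 cells (green circles) and CD8 cells (purple diamonds), for the 10 genes with the smallest adjusted p of the difference. Eomes, Sytl3, Crtam and Cst7 lie farther right in CD4 cells, while Map6 and Slc4a8 lie near 0 in CD4 cells and at 8.68 and 4.63 in CD8 cells.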

How the data were processed

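RNA of sorted CD4 and CD8 T cells was read with an Ion AmpliSeq transcriptome kit for mouse, in which each gene is measured by a single amplicon, per the labels' protocols. The deposited tables hold raw read counts of 23930 genes in 18 libraries, 6 groups of 3, per the file headers, and the build is mm10, per the submitters' processing notes. The aligner and counter were not given in the sources used here. The 12 zinc-fed libraries shared 1 chip and the 6 others had a chip of their own. Within pMT-10, effects of zinc and of the chip cannot be told apart.

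Counts were tested with edgeR 4.0.16 in R 4.3.3: TMM scaling, filterByExpr, a robust quasi-likelihood fit of 6 group means over 18 libraries with 12 residual degrees of freedom, and Benjamini-Hochberg adjustment over all 11316 genes tested. Every adjusted p in the text comes from this fit unless another is named, and it measures the spread between these libraries. A gene was called at an adjusted p under 0.05. Standard errors are the log2 change divided by the square root of F. CPM use TMM library sizes, and folds and fractions of wild type are ratios of mean CPM. Chromosomes came from GENCODE and RefSeq annotation of GRCm38 for 22733 genes. The fit was tested on simulated data.

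Genes were named by a rule: the largest non-overlapping changes, up to 4 called genes a direction and 2 uncalled genes of each list, the 10 most abundant called genes a direction, a short list of preset genes and the 10 genes with the smallest interaction p, from which the text takes a part. The markers counted beside the results, Ccl9, Cd74, Itgae and Slamf6 were added after their values were seen. Members and lists were chosen with earlier results of these data known. Alternatives covered scaling, DESeq2 1.42.0, the filter, the libraries fitted and leaving out each library. Some genes are not reported here.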

Additional observations from a re-analysis of the deposited data

Results flagged for a closer look

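For 10 genes the change between pMT-10 and C57BL/6 mice differed most clearly between CD4 and CD8 cells by the interaction term of the edgeR fit, given as the CD4 change minus the CD8 change on the log2 scale. More positive in CD4 cells were Crtam at 2.375 (adjusted p = 5.36e-05), Cst7 at 1.806, Eomes at 3.389 and Sytl3 at 2.533. More negative in CD4 cells were Gm14085 at -3.112 (adjusted p = 7.62e-05), Ctla4 at -3.604, Slamf1 at -1.921, Nt5e at -1.666, Slc4a8 at -4.472 and Map6 at -8.474. Slamf1, an adhesion receptor of activated T cells, read 11.6 ± 1.76 and 38.6 ± 6.87 CPM in the CD8 cells of C57BL/6 and pMT-10 (SD, n = 3 each). Slc4a8, a bicarbonate transporter, read 0.421 ± 0.38 and 9.82 ± 2.02 CPM there. Map6, a microtubule protein, was at 0 in all 3 C57BL/6 CD8 libraries and at 3.71 ± 1.28 CPM in pMT-10, so its fitted value depends on the prior count of the fit and is no bound.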

How the results depend on the processing

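With a 2-fold change required as well, 458 genes were higher and 558 lower. Leaving out single libraries gave 694 to 1059 higher and 602 to 1081 lower, with 602 lower without pMT-10 replicate 1 and 667 without pMT-10 replicate 3. For the difference between CD4 and CD8 cells, scaling by library size gave 119 more positive and 625 more negative in CD4, no filter gave 675 more negative, and leaving out single CD4 libraries gave 90 to 331 and 162 to 541. The low ends, 90 and 162, came without pMT-10 replicate 1. Without C57BL/6 replicate 1 or 2 or pMT-10 replicate 3 the counts were 105, 119 and 134 more positive and 217, 245 and 240 more negative. The cause was not tested. Of the 151 named genes that were called 142 kept the call without any single library and 140 under every alternative. Many of them were named for the size of their change in these same data, so these counts do not describe called genes in general. The 11 exceptions were Btg1, Ccl9, Ccr7, Cd74, Dapl1, Il10, Itgae, Pdcd1, Prdm1, Slamf6 and Tigit, and Dapl1 ended at an adjusted p of 0.0534 when only the 6 libraries were fitted. Uncalled named genes gained a call as well: 11 with the 9 CD4 libraries (B2m, Cd4, Csf1, Foxo1, H2-K1, Ifngr1, Lck, Ldha, Mt1, Srgn and Tbx21), 7 with the 6 libraries, 6 with no filter, 3 by library size (Foxo1, Ifngr1 and Ltb), 3 by the DESeq2 test, 1 by DESeq2 size factors, 4 without pMT-10 replicate 2 and 2 without C57BL/6 replicate 3. No named gene changed direction. Depth limits genes near 0 in a group, whose ratios rest on a few reads. No paired analysis was possible because the replicate numbers follow accession order and the labels pair no libraries.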
